A study of Mus musculus with 10 samples.

Results

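Cholesterol synthesis, sterol transfer and the control of the transcription factor SREBP2 were described in mouse liver through 30 genes, all of which were found by symbol among the 19764 genes of the deposited count table. They were 20 enzymes of the route from acetyl-CoA to cholesterol, 4 genes that govern SREBP2, and 6 genes of sterol uptake, transfer, storage and receptor turnover. The livers came from female mice with a floxed gene for the glucocorticoid receptor (GR). GRMAC mice carried GRflox together with LysM-Cre+/-, and their GRflox littermates carried the floxed gene without Cre. All were fasted for 8 h from ZT12, when the active phase of a mouse begins. Each group had 5 libraries of polyadenylated RNA, numbered 1 to 5. The mice's age is not given in the sources used here, and no fed mice were among the samples, so the levels are those of a fasted liver only. LysM-Cre is driven from the Lyz2 locus, which myeloid cells such as macrophages use, and not from a hepatocyte gene, although hepatocytes make most of the liver's cholesterol. Since the controls had no Cre, Cre itself and loss of the receptor cannot be told apart. The labels do not say that each library is a separate animal, so p-values measure the spread between these libraries.

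Cholesterol is built from acetyl-CoA through mevalonate, isoprenoid diphosphates, squalene and lanosterol. SREBP2 is a membrane-bound factor of the endoplasmic reticulum: when sterols are scarce its escort SCAP carries it to the Golgi, where it is cut free to switch on nearly every enzyme of this route, and when sterols are plentiful INSIG proteins hold SCAP back. Insig1 is itself an SREBP target, whereas the liver form of Insig2 is known to be repressed by insulin and so to be abundant in fasting, a state in which hepatic sterol synthesis is low.

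Promoter stretches of 7 of these genes are shown because SREBP2 acts at such sequences together with the CCAAT-binding factor NF-Y. They are those of Hmgcs1, of the 4 enzymes with an unadjusted p under 0.05 for which a RefSeq window was at hand, and of the Insig pair. Each begins shortly before its first marked match and runs 5′ to 3′ to the last base before the annotated start (RefSeq, GRCm38.p6). Capitals mark matches to CCAAT, the NF-Y box, or to CACNCCAC, the core of the sterol regulatory element (SRE), on either strand. Bases farther upstream, among the 250 searched, are not printed. A looser SRE match in Cyp51 (ATCACCTCA, 89 to 81 bases before the start) is therefore not shown.
Hmgcs1 (chr13:119690104-119690350, + strand): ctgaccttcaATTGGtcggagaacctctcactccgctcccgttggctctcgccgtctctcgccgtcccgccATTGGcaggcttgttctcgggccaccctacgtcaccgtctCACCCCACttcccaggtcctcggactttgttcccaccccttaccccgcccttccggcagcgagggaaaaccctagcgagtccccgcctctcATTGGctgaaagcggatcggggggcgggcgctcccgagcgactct
Mvk (chr5:114444086-114444268, + strand): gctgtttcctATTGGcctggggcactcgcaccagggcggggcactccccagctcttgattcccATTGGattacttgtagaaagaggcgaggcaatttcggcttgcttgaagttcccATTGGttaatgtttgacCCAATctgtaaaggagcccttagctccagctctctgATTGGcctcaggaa
Idi1 (chr13:8885551-8885605, + strand): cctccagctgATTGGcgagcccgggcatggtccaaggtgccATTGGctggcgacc
Cyp51 (chr5:4104698-4104736, - strand): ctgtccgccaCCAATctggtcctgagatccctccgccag
Msmo1 (chr8:64733579-64733748, - strand): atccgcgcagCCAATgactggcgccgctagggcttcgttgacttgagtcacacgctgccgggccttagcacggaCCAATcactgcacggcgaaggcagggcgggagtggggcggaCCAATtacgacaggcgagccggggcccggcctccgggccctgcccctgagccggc
Insig1 (chr5:28071186-28071411, + strand): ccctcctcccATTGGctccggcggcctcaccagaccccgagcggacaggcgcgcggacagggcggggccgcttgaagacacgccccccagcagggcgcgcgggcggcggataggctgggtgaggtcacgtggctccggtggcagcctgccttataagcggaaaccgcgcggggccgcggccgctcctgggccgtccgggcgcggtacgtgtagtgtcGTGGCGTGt
Insig2 (chr1:121332590-121332735, - strand): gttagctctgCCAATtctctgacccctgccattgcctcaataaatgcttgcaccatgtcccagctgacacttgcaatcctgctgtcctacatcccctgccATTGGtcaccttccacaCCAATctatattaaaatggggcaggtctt
RefSeq windows were matched for 24 of the 30 genes, and in 23 of them the start was that of the count table. Over the 250 bases upstream, 21 of 24 windows (87.5%) held CCAAT on either strand, against 33.8% of all 32851 RefSeq windows. The 24 are 1 window per gene. The background holds several starts for some genes and was not limited to genes expressed in liver, so the sets are unlike. Matches numbered up to 5, in Mvk. The GC box GGGCGG was present in 19 of 24 (79.2%, against 32.7% of all windows). Hmgcs1 alone had TCACNCCAC, a longer form of the SRE (1 of 24, against 1.05% of all windows). CACNCCAC, which lies within that form, was found in Hmgcs1, Insig1 and Acat2 (12.5%, against 5.29%). Looser forms were found in 3 windows for TCACNNCAC (background 3.11%), 3 for ATCACNNCA (2.30%) and 6 for CACNNCAC (13.5%), and the E box CACGTG in 3 (6.02%). These 8 patterns partly overlap one another. In the plot of motif positions, the windows of Acat2, Dhcr7 and Scap hold no NF-Y box. A match is a description of the letters, not of a bound site.

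**Figure D1:**
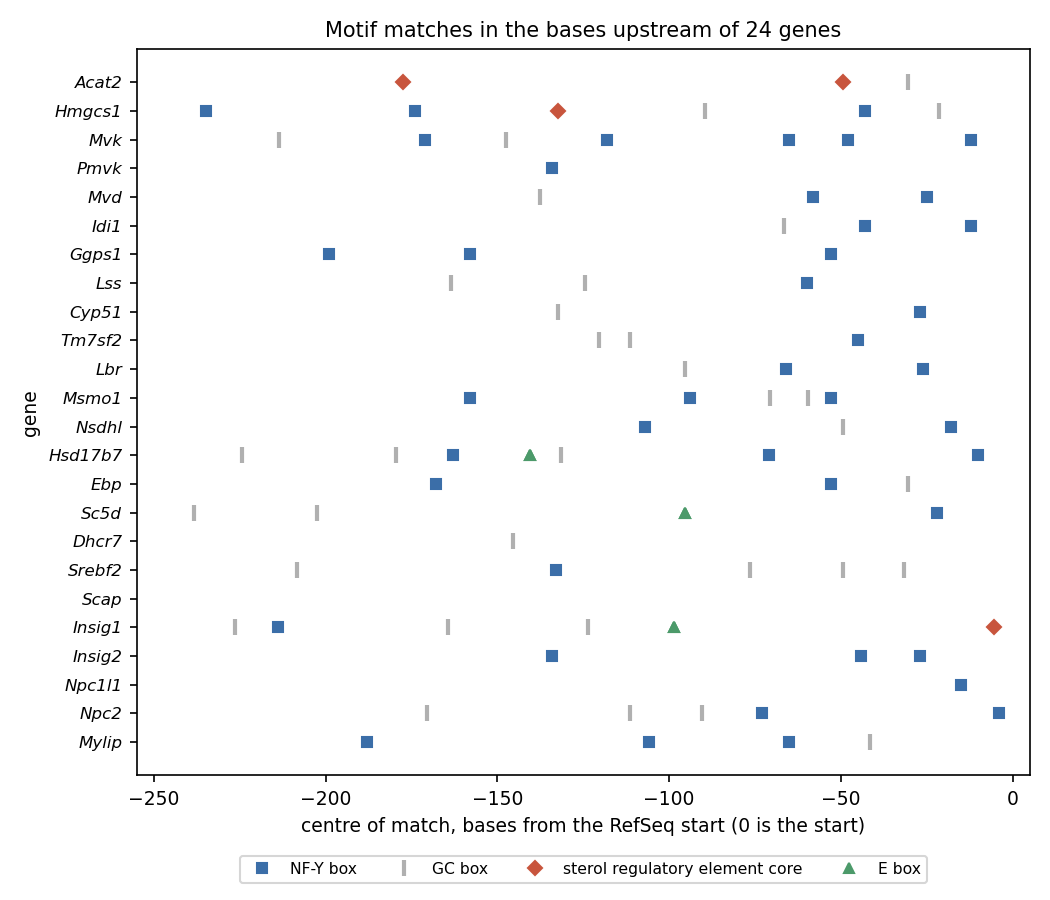
Positions of motif matches upstream of the 24 genes with a RefSeq window; the horizontal axis gives bases from the annotated start and each row is 1 gene. Squares are NF-Y boxes, bars GC boxes, diamonds the SRE core and triangles E boxes; 21 genes have at least 1 NF-Y box, and the SRE core appears in 3.

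Library totals were 25697931 to 27692528 counts in GRflox and 23258884 to 26116916 in GRMAC, so a count of 3 in a library equals 0.111 to 0.129 CPM (counts scaled to library size). The 7 hepatocyte markers summed to 112940.7 to 131017.6 CPM in GRflox and 106144.3 to 132194.8 CPM in GRMAC, so both groups were dominated by hepatocyte RNA. Summed levels were 197.5 to 258.6 CPM and 231.0 to 329.2 CPM for 8 Kupffer cell markers (6 higher and 2 lower in mean), 0.624 to 1.90 CPM and 2.08 to 3.40 CPM for 3 B cell markers in the table, and 5.15 to 7.11 CPM and 5.39 to 7.54 CPM for 3 pancreas markers, of which Prss2 and Cpa1 were at 0 counts. The 4 stellate cell markers in the table were all higher in mean (155.2 to 199.5 CPM and 159.7 to 218.6 CPM), as were the 3 B cell markers. None of the markers that could be tested passed over all genes with edgeR. Of the red blood cell and adipocyte lists 0 could be tested, and of the T and NK cell and pancreas lists 1 each. The Kupffer cell marker Cd5l did not overlap, at 36.4 to 54.0 CPM in GRflox and 56.0 to 88.2 CPM in GRMAC. Its adjusted p was 0.0928 with edgeR and 0.0057 with DESeq2. DESeq2 results of the other markers are not given here. Nr3c1, the floxed gene, had levels of 72.8 ± 7.14 CPM (GRflox) and 82.5 ± 7.75 CPM (GRMAC; SD, n = 5), which does not check the deletion, since 1 count per gene cannot show a lost exon and most liver RNA is from cells without LysM-Cre. Cd163, a macrophage scavenger receptor induced by glucocorticoids, fell from 28.8 ± 7.81 to 3.07 ± 0.493 CPM (adjusted p = 2.55e-05, edgeR). The part of the Kupffer, stellate and B cell markers in the results was not tested. In bulk liver, fewer cells of a type and less RNA per cell cannot be told apart. The slope of log2 expression on transcript GC content also differed in part between the groups, with 0.00801 to 0.0699 per 10 points of GC in GRflox and −0.0544 to 0.00875 in GRMAC; its part in the results was not tested, and values after a correction for GC content and transcript length are given for the 6 genes of lowest p.

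Most of the pathway was higher in mean in GRMAC liver, by small amounts, and no single gene passed the test over all genes with edgeR. Of the 29 genes that passed the filter on low counts, 24 (82.8%) had a positive log2 fold change, against 50.2% of all 12558 genes tested, and the median was 0.16, against 0.00 for all genes. At an adjusted p under 0.05, edgeR called 0 of the 29, against 0.175% of all genes. At an unadjusted p under 0.05 there were 6 (Mvk, Idi1, Fdft1, Cyp51, Msmo1 and Stard4), against 16.3% of all genes in either direction. All 6 were higher in GRMAC (20.7%, against 8.58% of all genes in that direction), and 0 were lower (against 7.75%). DESeq2, a second count test, called 1 gene, Stard4, as higher (of all genes with an adjusted p it called 3.63%, and 1.97% as higher), and limma-voom called 0. In the authors' deposited table Stard4 was likewise the only one of these genes under 0.05 (log2 fold change 0.47, adjusted p = 0.00822), where 3.33% of all genes were called, and 1.84% as higher. A log2 fold change over 0.25 was seen in 10 of the 29 (34.5%, against 11.4%). Groups that did not overlap were found for Stard4 only (3.45%, against 2.05% of all genes with GRMAC higher). The genes were picked out with earlier results of these data known, so these shares describe the list and do not test it. Some of the genes also moved together, and GRMAC 2 held the highest level of 17 of the 29. With each genotype's mean taken out, pairs of synthesis enzymes had a median r of 0.2 over the 10 libraries. Of these 190 pairs, 65.3% were positive. The 29 genes are therefore not 29 separate observations.

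**Figure D2:**
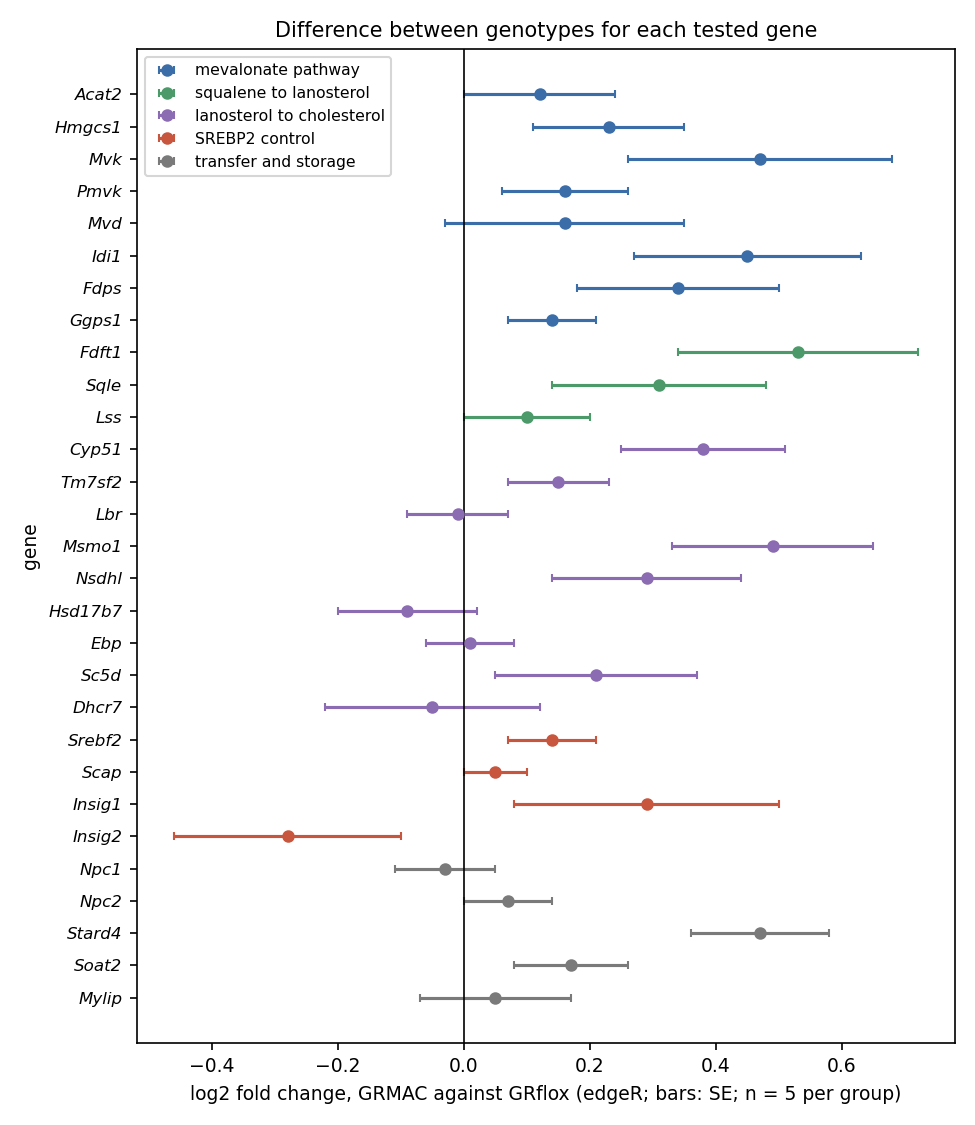
Log2 fold changes of GRMAC against GRflox for the 29 tested genes (horizontal axis, edgeR; points, estimates; bars, SE; n = 5 per group), coloured by step of the pathway. Values run from −0.28 (Insig2) to 0.53 (Fdft1), and 24 of the 29 lie above 0.

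All 8 genes of the mevalonate pathway had positive log2 fold changes, with a median of 0.20 and a range of 0.12 to 0.47. Hmgcs1, the cytosolic synthase that makes HMG-CoA (NM_001291439, mm10 chromosome 13, 119690351 to 119708260), was at 172.1, 199.1, 129.9, 175.5 and 146.8 CPM in GRflox 1 to 5. In GRMAC 1 to 5 it was at 189.2, 225.0, 208.7, 185.3 and 154.3 CPM. The groups overlapped, with 2 GRMAC libraries above every control (log2 fold change 0.23 ± 0.12 SE, adjusted p = 0.375, edgeR). Without GRflox 3 the value was 0.15. Mvk, the kinase that phosphorylates mevalonate (chromosome 5, 114444269 to 114460590), had only 47 to 128 counts per library. Its levels were 1.83, 2.48, 2.89, 2.55 and 2.36 CPM in GRflox and 3.40, 3.08, 2.50, 2.54 and 5.27 CPM in GRMAC. The groups overlapped: GRMAC 1, 2 and 5 lay above every control, GRMAC 5 farthest, and the difference of 0.47 ± 0.21 (adjusted p = 0.289, edgeR) was 0.25 without that library and 0.51 after the GC and length correction.

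Idi1, the isomerase that makes the reactive isoprenoid unit (chromosome 13, 8885606 to 8892396), was at 9.25, 9.25, 7.99, 6.65 and 9.93 CPM in GRflox. It was at 13.5, 16.5, 9.60, 8.11 and 11.1 CPM in GRMAC. GRMAC 1, 2 and 5 lay above every control, and GRMAC 3 and 4 lay among the controls (0.45 ± 0.18, adjusted p = 0.237, edgeR). The value was 0.30 without GRMAC 2 and 0.37 after the correction. Fdps, which makes farnesyl diphosphate, had a like split: 46.9, 47.0 and 39.6 CPM in GRMAC 1, 2 and 3 exceeded the control range of 26.5 to 34.3 CPM, whereas GRMAC 4 (27.1) and GRMAC 5 (27.9) lay within it (0.34 ± 0.16, adjusted p = 0.334).

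The other mevalonate genes differed less. Pmvk, the phosphomevalonate kinase, was at 17.1 ± 1.31 and 19.2 ± 3.01 CPM in GRflox and GRMAC (SD, n = 5), and Mvd, the decarboxylase that follows it, at 3.81 ± 1.12 and 4.25 ± 0.735 CPM. The Mvd difference of 0.16 was 0.03 without GRflox 4 and 0.32 without GRflox 5. Ggps1, which makes geranylgeranyl diphosphate for protein prenylation, was at 11 ± 0.797 and 12.1 ± 0.565 CPM, with 4 GRMAC libraries above every control; its log2 fold change of 0.14 was 0.04 after the correction for GC content and length. Acat2, the cytosolic thiolase at the head of the route, was at 27.2 ± 1.32 and 29.6 ± 6.30 CPM (log2 fold change 0.12; 0.01 without GRMAC 2 and 0.21 without GRMAC 4). Its close copy Acat3 was at 56.6 ± 17 and 66.1 ± 22.9 CPM, so reads may be split between them.

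Between farnesyl diphosphate and lanosterol, all 3 enzymes had positive log2 fold changes (median 0.31). Fdft1, squalene synthase, the first enzyme committed to sterols (chromosome 14, 63145151 to 63179578), was at 18.9, 28.1, 25.7, 31.2 and 19.8 CPM in GRflox. In GRMAC it was at 33.0, 49.9, 34.6, 25.9 and 35.0 CPM. Only GRMAC 4 lay within the control range, and the difference, 1.44-fold, was the largest of the 29 (log2 0.53 ± 0.19, adjusted p = 0.201, edgeR). After the GC and length correction it was 0.53 (adjusted p = 0.267). Fdft1 overlaps Ctsb, a cathepsin gene on the other strand, by 773 bases; Ctsb was far more abundant (454.8 ± 48.8 and 451.9 ± 19.6 CPM) and the strand setting is not given in the sources used here, so the Fdft1 counts are uncertain.

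Sqle, squalene epoxidase, a rate-limiting enzyme of the sterol branch (chromosome 15, 59315092 to 59331193), was at 15.3, 14, 9.43, 8.86 and 16.1 CPM in GRflox. It was at 15.5, 17.7, 12.9, 16.2 and 16.6 CPM in GRMAC. The low controls were GRflox 3 and GRflox 4, and the other 3 controls lay within the GRMAC range (0.31 ± 0.17, adjusted p = 0.378, edgeR). Without GRflox 4 the value was 0.20. Lss, lanosterol synthase, was at 8.80 ± 0.427 and 9.39 ± 1.17 CPM (0.10, and 0.04 without GRMAC 2).

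Of the 9 genes from lanosterol to cholesterol, 6 had positive log2 fold changes, that of Ebp only 0.01, and 3 had negative ones (median 0.15). Cyp51, the cytochrome P450 that removes the 14-alpha methyl group of lanosterol (chromosome 5, 4080674 to 4104697), was at 43.5, 40.8, 37.7, 37.5 and 45.9 CPM in GRflox. It was at 59.0, 67.5, 53.9, 37.6 and 48.8 CPM in GRMAC. Again GRMAC 4 sat at the bottom of the control range and the other 4 libraries lay above it (0.38 ± 0.13, adjusted p = 0.195, edgeR; 0.34 after the GC and length correction). Msmo1, the C4-methylsterol oxidase (chromosome 8, 64718145 to 64733578), was almost constant in the controls, at 14.7, 14.9, 16.2, 14.7 and 15 CPM. In GRMAC it was at 27.4, 27.4, 19.4, 15.8 and 16.1 CPM. Thus GRMAC 1, 2 and 3 exceeded every control, while GRMAC 4 and 5 did not exceed GRflox 3 (1.40-fold, log2 0.49 ± 0.16, adjusted p = 0.167, edgeR; 0.45 after the correction).

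Nsdhl, the dehydrogenase that works with Msmo1 in removing the C4 methyl groups, was at 12.2 ± 1.18 and 14.9 ± 3.42 CPM, with GRMAC 1, 2 and 3 at 16.4 to 18.3 CPM and GRMAC 4 the lowest of all libraries at 9.72 CPM. Hsd17b7, the 3-keto reductase of the same demethylation, had a negative log2 fold change, with mean levels of 102.3 ± 16.6 and 95.9 ± 11 CPM (−0.09 ± 0.11, adjusted p = 0.731, edgeR). That value was −0.01 without GRflox 1, −0.03 without GRMAC 3, −0.17 without GRflox 4 and −0.16 after the GC and length correction. Sc5d, the C5 desaturase, was at 118.5 ± 19.9 and 137.0 ± 28.7 CPM (0.21, and 0.13 without GRflox 1, without GRMAC 5 or after the correction). Tm7sf2 and Lbr both encode sterol C14 reductases. Tm7sf2 was the more abundant per kilobase of transcript (71.1 and 78.7 CPM per kb, against 4.48 and 4.45 CPM per kb for Lbr). It had the positive log2 fold change of the pair (0.15 ± 0.08, and −0.01 ± 0.08 for Lbr).

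Ebp, the delta8-delta7 sterol isomerase, was the synthesis gene with the highest level per length (87.7 and 88.1 CPM per kb) and was close in the groups, at 152.9 ± 15.2 and 153.6 ± 5.96 CPM. Dhcr7, the reductase of the last step, was at 32.1 ± 5.49 and 31.0 ± 7.23 CPM (−0.05 ± 0.17, adjusted p = 0.912, edgeR). Among its libraries GRMAC 4 had the highest level (40.3 CPM) and GRMAC 2 the lowest (22.4 CPM), the reverse of their places for Cyp51, where GRMAC 2 was highest and GRMAC 4 next to lowest.

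**Figure D3:**
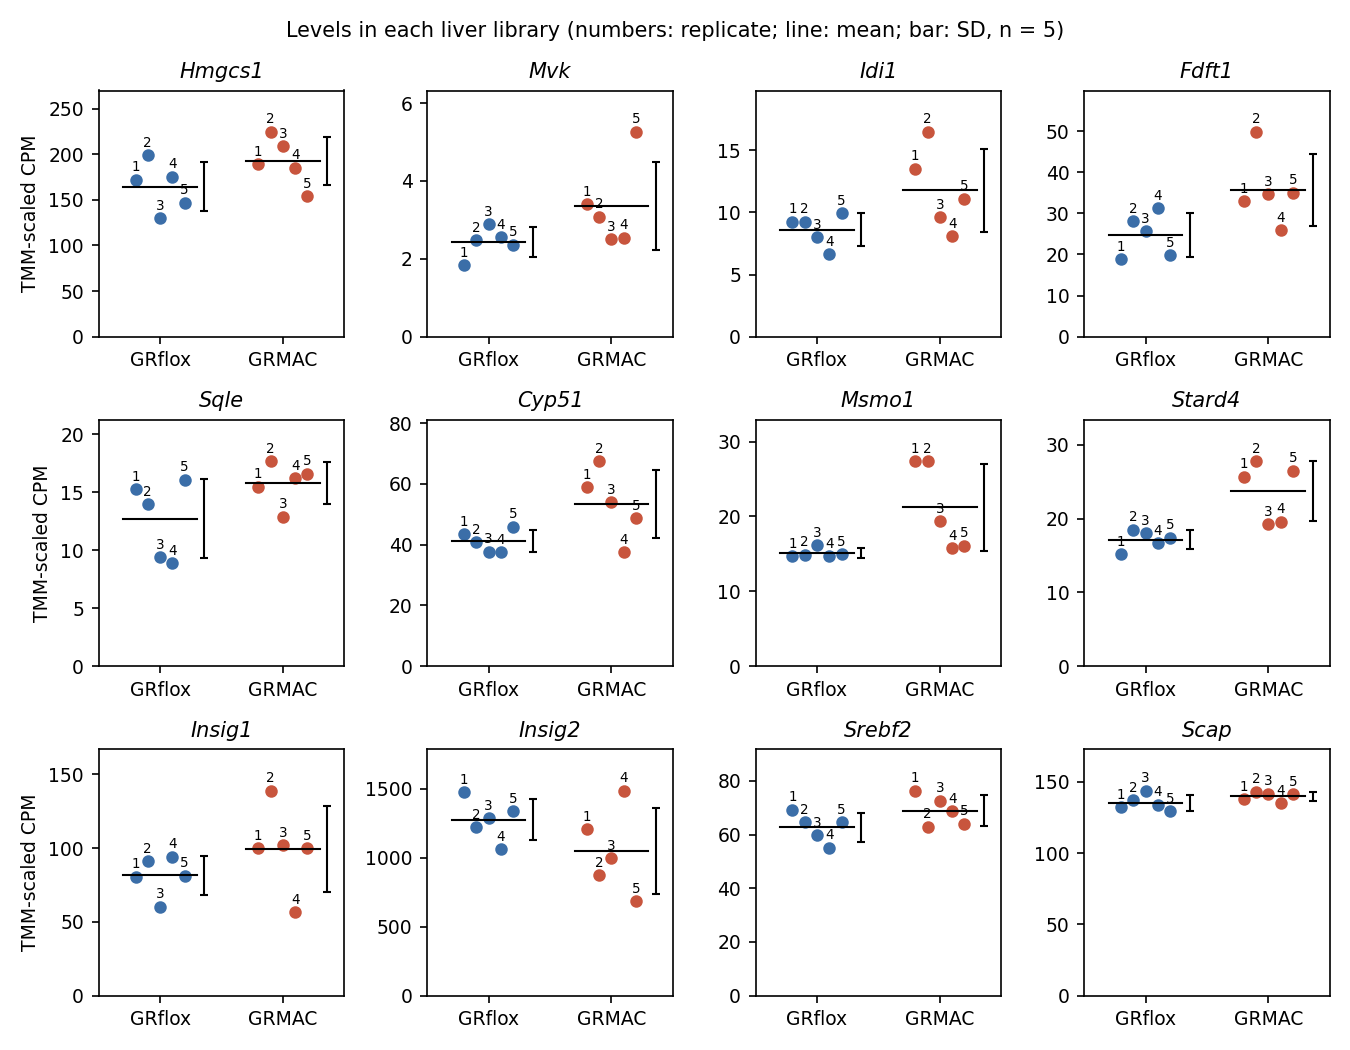
TMM-scaled CPM (vertical axes, from 0) of 12 genes in the 5 GRflox (blue) and 5 GRMAC (red) libraries, numbered by replicate; lines are means and bars SDs. Only Stard4 separates the groups, at 15.2 to 18.5 CPM in GRflox and 19.2 to 27.8 CPM in GRMAC, and GRMAC 4 lies among the controls for Idi1, Fdft1 and Cyp51.

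Of the 4 genes that govern SREBP2, 3 had positive log2 fold changes and Insig2 had a negative one (median 0.09). Srebf2, which encodes SREBP2 itself (chromosome 15, 82147269 to 82204960), was at 69.3, 64.7, 59.8, 55.1 and 64.5 CPM in GRflox. It was at 76.4, 63.0, 72.6, 68.6 and 64.1 CPM in GRMAC. The groups overlapped, with GRMAC 1 and 3 above every control (0.14 ± 0.07, adjusted p = 0.364, edgeR; 0.09 without GRflox 4). Scap, the SREBP escort (chromosome 9, 110333288 to 110384949), was the steadiest of the 4, at 132.1, 137.2, 144.0, 134.0 and 129.6 CPM in GRflox and 137.8, 143.3, 141.8, 135.3 and 141.6 CPM in GRMAC (0.05 ± 0.05, adjusted p = 0.680; 0.03 without GRflox 5 and 0.08 after the correction).

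Insig1, the retention protein that SREBPs themselves induce (chromosome 5, 28071412 to 28078662), was at 80.6, 91.0, 60.4, 94.3 and 81.4 CPM in GRflox. In GRMAC it was at 100.2, 139.1, 101.9, 56.5 and 99.8 CPM. Thus 4 GRMAC libraries exceeded every control and GRMAC 4 was the lowest of all 10 (0.29 ± 0.21, adjusted p = 0.542, edgeR). The log2 fold change was 0.14 without GRMAC 2 and 0.44 without GRMAC 4. Insig2, its paralog (chromosome 1, 121304353 to 121332589), had the highest level of the 30 genes, in CPM and per kilobase, with 16598 to 38701 counts per library. It was at 1473.4, 1223.0, 1288.1, 1063.8 and 1335.6 CPM in GRflox and 1208.0, 871.0, 996.6, 1486.9 and 682.7 CPM in GRMAC. GRMAC 2, 3 and 5 were below every control and GRMAC 4 above every control (−0.28 ± 0.18, adjusted p = 0.469, edgeR). The value was −0.44 without GRMAC 4 and −0.16 without GRMAC 5.

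Per kilobase of transcript, the mean Insig2 level was 988.2 CPM (GRflox) and 811.9 CPM (GRMAC), against 30.2 and 36.9 CPM for Insig1. The ratio of the paralogs on that scale was 38.2, 28.1, 44.5, 23.6 and 34.3 in GRflox and 25.2, 13.1, 20.4, 54.9 and 14.3 in GRMAC. In GRMAC 2, 3 and 5 the ratio lay below every control, and in GRMAC 4 above every control. The group means were 33.7 ± 8.25 and 25.6 ± 17.1 (SD, n = 5). RefSeq places 3 starts in Insig2, and 1 count per gene cannot tell its transcripts apart.

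Uptake, transfer and storage genes had a median log2 fold change of 0.07 over the 5 that were tested. Stard4, a soluble carrier that moves cholesterol between membranes and an SREBP target (NM_133774, chromosome 18, 33201421 to 33213816), was at 15.2, 18.5, 18.0, 16.7 and 17.4 CPM in GRflox. It was at 25.7, 27.8, 19.2, 19.6 and 26.5 CPM in GRMAC. Every GRMAC library was above every control. GRMAC 3 and 4 lay closest to them, and the difference was 1.39-fold (log2 0.47 ± 0.11, adjusted p = 0.0746, edgeR). With DESeq2 the adjusted p was 0.00779. Over the alternatives run, edgeR's adjusted p for Stard4 ran up to 0.165 (without GRflox 5). The log2 fold change stayed between 0.40, after the GC and length correction, and 0.54.

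Soat2, which esterifies cholesterol for storage and lipoproteins, was at 51.5 ± 7.30 and 58.0 ± 4.03 CPM (0.17 ± 0.09, adjusted p = 0.362, edgeR; 0.10 without GRflox 5). The lysosomal pair that exports cholesterol taken up with lipoproteins differed little, with Npc1 at 239.1 ± 21.2 and 233.9 ± 20.7 CPM and Npc2 at 67.8 ± 5.40 and 71.1 ± 6.14 CPM (0.07; 0.02 without GRflox 5 and 0.11 without GRMAC 5). Npc1 overlaps a gene on the other strand, 3110002H16Rik, by 276 bases. Mylip, a ubiquitin ligase induced by oxysterols that removes lipoprotein receptors from the cell surface, was at 18.3 ± 1.85 and 19.0 ± 3.32 CPM. Npc1l1, the sterol importer of the intestine, had 0 to 2 counts per library and was not tested; a count of 3 would have been 0.111 to 0.129 CPM.

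The 20 synthesis enzymes were also read together in each library. A score for each library was taken as the mean, over the 20 synthesis enzymes, of log2 CPM centred on each gene's mean. It was −0.17, −0.09, −0.09, −0.13 and −0.04 in GRflox 1 to 5. In GRMAC 1 to 5 it was 0.19, 0.30, 0.08, −0.10 and 0.05. Hence 4 GRMAC libraries lay above every control and GRMAC 4 lay among the controls; the SD was 0.05 in GRflox and 0.15 in GRMAC. GRMAC 2 held the highest level of 13 of the 20 enzymes, whereas the lowest level was in GRflox 4 for 6, in GRflox 1 for 5, in GRMAC 4 for 4 and elsewhere for the others. In GRMAC 2, 18 of the 20 were above their own mean over the libraries, against 7 in GRMAC 4.

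By step, the scores of the squalene genes did not overlap (−0.28 to −0.03 in GRflox and 0.06 to 0.46 in GRMAC). Nor did those of the transfer and storage genes (−0.20 to −0.01 and 0.03 to 0.15), whereas those of the other steps overlapped. Each of the 3 squalene genes overlapped on its own, and Fdft1, whose counts are uncertain, had the largest difference. Among the 5 transfer and storage genes, only Stard4 did not overlap. Scores without Fdft1 or without Stard4 were not taken, but the separations rest on these genes. Sqle and Lss were both higher in GRflox 5 (16.1 and 9.38 CPM) than in GRMAC 1 (15.5 and 8.7 CPM). Centred levels of Npc1, Npc2 and Mylip were 0.06, 0.03 and 0.18 in GRflox 3. In GRMAC 5 they were −0.2, −0.15 and −0.02, and only Soat2 lay the other way (−0.16 and 0.17). How often scores of so few genes separate the groups over all genes was not measured. With the 5 enzymes at an unadjusted p under 0.05 set aside, a choice made from these values, the other 15 synthesis genes had scores from −0.12 to 0.01 in GRflox and from −0.06 to 0.21 in GRMAC. The median log2 fold change of the 20 enzymes was 0.19, with 17 positive. It was 0.14 without GRMAC 2 (18 positive), 0.24 without GRMAC 4 (17 positive) and 0.20 after the GC and length correction (17 positive). The library with the highest synthesis score, GRMAC 2, had the second lowest Insig2 level, and GRMAC 4 had the highest Insig2 level with a synthesis score ranked eighth of 10. That order did not hold throughout: GRMAC 5 had the lowest Insig2 level with a score of 0.05, and GRflox 4 an Insig2 level below the other controls with a score of −0.13.

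**Figure D4:**
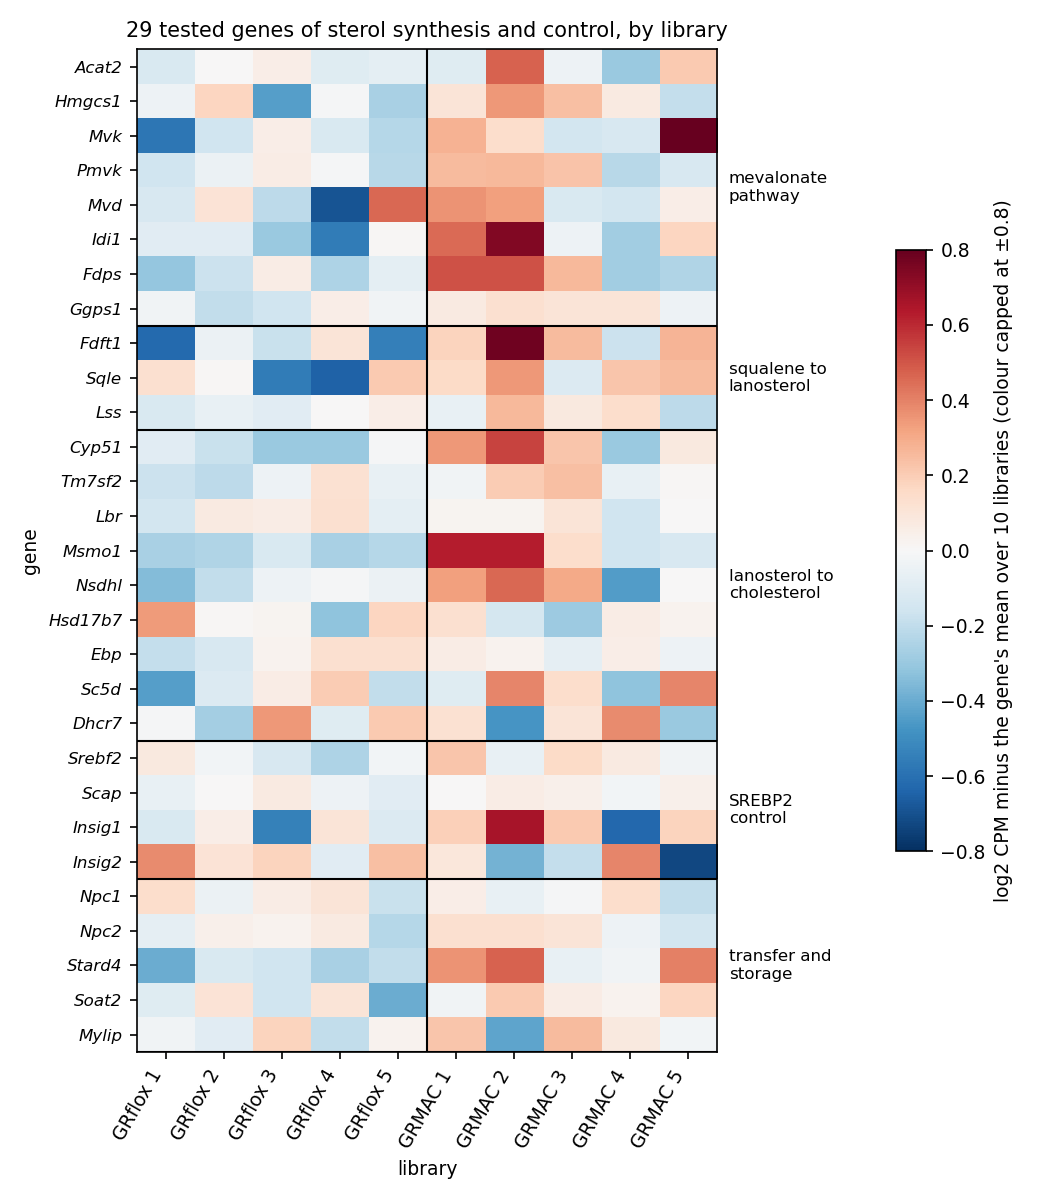
Log2 CPM of each of the 29 tested genes (rows, by step) minus its mean over the 10 libraries (columns); red is above and blue below that mean, and colours are capped at 0.8. GRMAC 2 is red for most enzymes, GRMAC 1 and 3 less so, and the enzyme rows of GRMAC 4 resemble those of the controls.

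**Figure D5:**
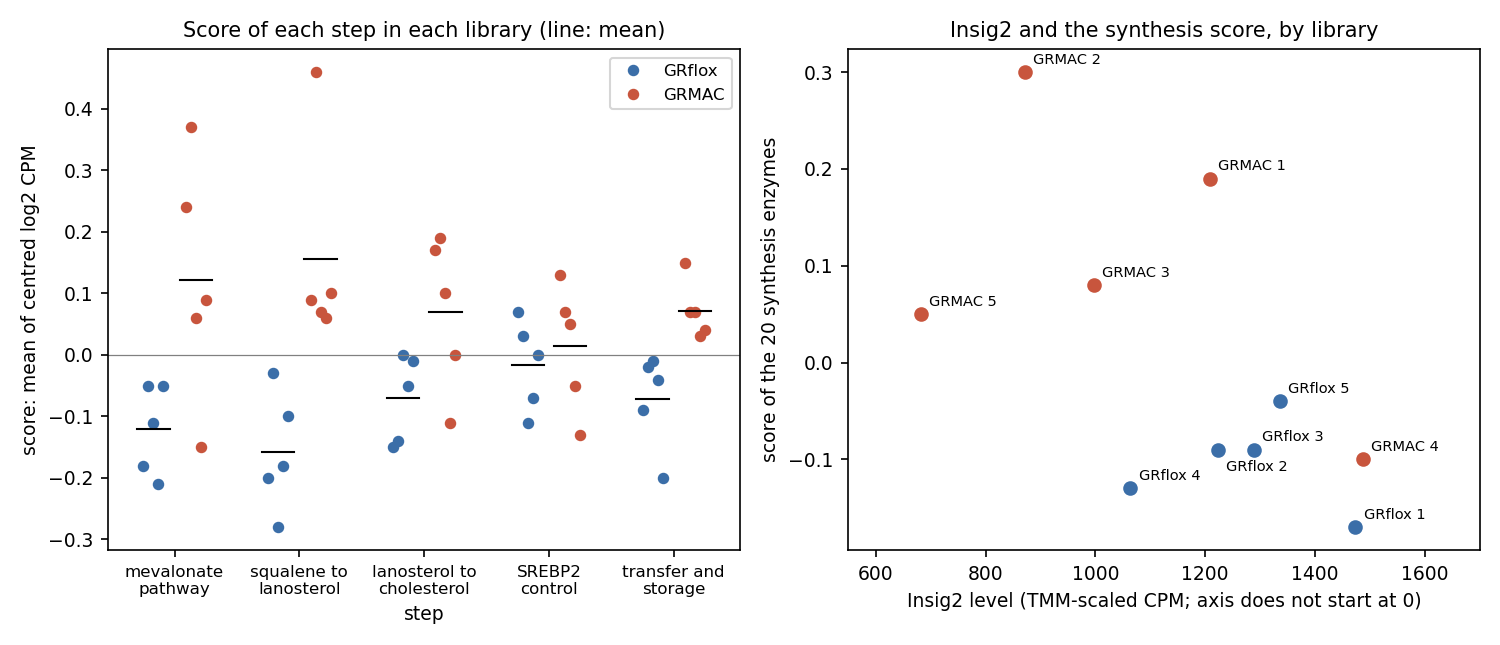
Left, the score of each step in each library (vertical axis, mean of centred log2 CPM; blue GRflox, red GRMAC; lines, means); right, the score of the 20 synthesis enzymes against the Insig2 level in CPM, with each library named. The squalene and the transfer and storage scores separate the groups, which rests on Fdft1 and on Stard4. How often scores of so few genes do so over all genes was not measured. GRMAC 4 (Insig2 at 1486.9 CPM, score −0.10) lies with the controls. No squalene gene separates the groups on its own, and of the transfer and storage genes only Stard4 does.

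Genes beside the core route were split almost evenly by sign. Of 47 further genes in 4 lists, 24 had positive and 23 negative log2 fold changes (median 0.00, against 0.16 for the 29 core genes). Over all genes edgeR called 0 of them. At an unadjusted p under 0.05, 1 was higher (8.58% of all genes were) and 5 were lower (7.75% of all genes were). Groups did not overlap for 2, both lower in GRMAC (2.01% of all genes). Among 11 genes of SREBP processing and sterol-regulated protein turnover (median 0.06) the lowest p were those of Ube2g2, a ubiquitin-conjugating enzyme of the endoplasmic reticulum (49.9 ± 4.41 and 42.8 ± 4.87 CPM, adjusted p = 0.204), and Rnf145, a sterol-responsive ubiquitin ligase (31.6 ± 3.41 and 35.0 ± 2.33 CPM, adjusted p = 0.365).

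In the 19 genes of sterol efflux, esters and intracellular transport (median −0.01), Nr1h3, which encodes the oxysterol receptor LXR-alpha, had levels of 124.6, 122.2, 117.8, 120.0 and 125.5 CPM in the GRflox libraries and 115.1, 106.7, 110.2, 109.0 and 106.1 CPM in GRMAC. No GRMAC library reached the controls, and the difference of −0.16 ± 0.05 did not pass over all genes with edgeR (adjusted p = 0.145) but did with DESeq2 (adjusted p = 0.0153). After the GC and length correction it was −0.11 (adjusted p = 0.328, edgeR). Abca1, the cholesterol exporter that loads apolipoprotein A-I and an LXR target, lay the other way (137.9 ± 8.60 and 155.8 ± 11.9 CPM, 0.18 ± 0.07, adjusted p = 0.206), and was at 0.10 after the correction (adjusted p = 0.448). The 10 genes of the isoprenoid branch had a median of −0.03, with Nus1, a subunit of the dolichol-making prenyltransferase, at −0.17 ± 0.06 (adjusted p = 0.189; −0.26 after the correction), and Coq2, of coenzyme Q synthesis, at 0.12 ± 0.07 (adjusted p = 0.404). The 7 electron donors and other sterol-linked genes had a median of 0.06. Por, the reductase that supplies Cyp51 and Sqle with electrons, was at 1335.7 ± 100.1 and 1177.8 ± 151.7 CPM (adjusted p = 0.341), and Tmem97, a sterol-binding regulator of Npc1, at 43.3 ± 2.37 and 47.5 ± 6.16 CPM (adjusted p = 0.436).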

How the data were processed

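Liver RNA libraries, 5 from GRMAC and 5 from GRflox mice, were compared. The authors deposited 1 table of read counts per gene, in whole numbers and with genomic coordinates, printed here with the first base counted as 1. HISAT2 2.1.0, DESeq2 1.24.0 and the build mm10 are named in the submitters' processing notes. Which program and annotation gave the counts, and whether it used strand or introns, is not given in the sources used here. A second table gives log2 fold changes of knockout against control and adjusted p-values, per the file headers; its other 10 columns were not used.

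Genes were filtered with filterByExpr (12558 of 19764 kept), scaled by TMM and tested with edgeR 4.0.16 (quasi-likelihood test, robust estimation, R 4.3.3), with Benjamini-Hochberg adjustment over all genes kept and a threshold of 0.05. SEs come from the fold change and F statistic. CPM are TMM-scaled, means ± SD. Scores used log2 CPM with a prior count of 2. Levels per kilobase (1000 bases) and GC content use the GENCODE M21 transcript paired with the table's accession, else the longest of that symbol. The scripts were tested on simulated data with 200 changed genes.

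The genes, steps and lists were chosen with earlier results of these data known. Every member is reported. Values per library are given for members with an unadjusted p under 0.05 and for Hmgcs1, Sqle, Idi1, Cyp51, Insig1, Insig2, Srebf2 and Scap. From each further list the 2 genes of lowest p are named. Alternatives were DESeq2 1.42.0, limma-voom (limma 3.58.1), other scalings, no filter, no robust estimation, the replicate number as a block, a GC and length correction (splines with 5 degrees of freedom per library), and leaving out libraries. No pair of libraries had equal counts in more than 1.43% of tested genes.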

Additional observations from a re-analysis of the deposited data

Results flagged for a closer look

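A single library stood well away from the remaining libraries of its genotype in 2 of the 74 gene or score groups looked at; about 4 (1 in 20) would do so by chance. Msmo1 was at 16.2 CPM in GRflox 3, against 14.7 to 15 CPM in the other GRflox libraries, a small gap in a narrow group. The squalene score of GRMAC 2 was 0.46, against 0.06 to 0.10 in the other GRMAC libraries; Fdft1 (49.9 CPM), Sqle (17.7 CPM) and Lss (10.9 CPM) each had their highest level of all 10 libraries there.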

How the results depend on the processing

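The 22 genes called over the whole table became 447 with DESeq2, 8 with limma-voom, 8 without robust estimation, 34 with no genes filtered, 9 after correcting for GC and length, and 68 without GRflox 4 and GRMAC 4 together; with 1 library left out they were 5 to 47. With the replicate number as a block they were 81, of which 0 were among the 29 genes described here; same-numbered libraries deviated together in 2 of 5 pairs only (r from −0.108 to 0.173), so the numbers were not taken as pairs, and 4 of 10 libraries correlated best with their own number. The count of these 29 past the threshold, 0 with edgeR, was 1 with DESeq2 (Stard4) and 0 in every other setting, with 1 library left out included (0 to 0). At an unadjusted p under 0.05 the count of 6 became 14 without GRflox 4 and GRMAC 4 (13 higher, where 9.35% of all genes were; 1 lower, Insig2), and 4 to 12 with 1 library left out. The 4, all higher, were without GRMAC 1 (8.36% of all genes) and the 12 without GRMAC 4 (11 higher, where 8.38% of all genes were). The median of 0.16 ranged from 0.14 to 0.21 with 1 library left out. The cause was not tested. Of 551 values of single genes under the alternatives 15 changed sign, all of genes near 0: Lbr, at −0.01, was 0.00 with upper quartile scaling and 0.06 without GRflox 4 and GRMAC 4, and with 1 library left out Lbr ran from −0.05 to 0.03, Ebp from −0.04 to 0.04, Dhcr7 from −0.16 to 0.05, Npc1 from −0.08 to 0.01 and Mylip from 0.00 to 0.16. Depth limits Npc1l1 (0 to 2 counts), Mvk (47 to 128) and Mvd (64 to 147).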

Other observations

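Some further genes of sterol sensing were picked out after their values were seen, and they add levels only. Nr1h2, which encodes LXR-beta, was at 53.7 to 59.9 CPM in GRflox and 49.8 to 53.6 CPM in GRMAC, groups that do not overlap (−0.12 ± 0.05, adjusted p = 0.261, edgeR). Abcg8, a part of the exporter that sends sterols into bile, was at 147.5 ± 10.6 and 130.7 ± 14.3 CPM (SD, n = 5; −0.17 ± 0.08). Abcg1, an exporter of sterols to HDL that macrophages also express, was at 4.31 ± 0.378 and 5.12 ± 0.604 CPM (0.25 ± 0.12). Srebf1, which encodes SREBP1 and is induced by insulin and LXR, varied widely: 52.1, 67.7, 44.8, 78.4 and 37.6 CPM in GRflox and 72.9, 99.0, 62.6, 54.0 and 74.3 CPM in GRMAC (0.37 ± 0.22, adjusted p = 0.451, edgeR). GRMAC 2 was its highest library and GRMAC 4 its lowest within GRMAC, as for Insig1.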
